A study of Mus musculus with 8 samples.

Results

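The comparison described here is the change in the spleen of Lmna mutant mice between day 0, without irradiation, and day 7 after 4 Gy. It was chosen by the sample titles and holds 4 of the series' 8 RNA sequencing libraries: 2 unirradiated and 2 irradiated mutant spleens. The mice were C57BL/6, aged 6 weeks, and in both groups had the R527C change in Lmna, which encodes lamin A and lamin C. The labels do not say whether 1 or both copies were changed. The other 4 libraries, from wild-type C57BL/6 mice of the same age, day and dose, entered the same fit and serve for comparison. Genes on autosomes are described: 16707 of the 17327 genes tested, out of 52636 in the count table. Irradiation and day changed together, since the samples hold no unirradiated spleen of day 7, so the effect of the dose and that of the day cannot be told apart.

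The mouse spleen filters blood, houses B and T lymphocytes around its arteries, and, unlike the adult human spleen, makes red cells, platelets and granulocytes in its red pulp. Dividing blood precursors and lymphocytes are among the cells most sensitive to ionising radiation. Double-strand breaks activate p53, a transcription factor whose targets stop the cell cycle (Cdkn1a) or start cell death (Bbc3). Lamins form the meshwork under the inner nuclear membrane. In its design text the series asked how the Lmna mutation leads to senescence, the lasting arrest of cell division.

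Mutant libraries held 12147309 to 19367791 gene counts, and the upper limit that a count of 0 leaves, 3 counts, stood for 0.131 to 0.350 CPM over all 8 libraries. CPM here are a gene's counts scaled to a common library size by TMM. The unirradiated mutant replicates were alike, with 4.89% of tested genes over 2-fold apart and a correlation of log2 CPM across genes of 0.986. The irradiated pair differed far more, with 43.8% of genes over 2-fold apart and a correlation of 0.867. The groups also differed in sex-linked transcripts: Xist, transcribed in female cells, had 6 and 5 counts in the unirradiated and 15208 and 18590 in the irradiated mutant libraries, and Y-linked genes summed to 6856 and 5664 against 0 and 0 counts. The wild-type libraries split the same way. Markers of the spleen's B cells, T cells, macrophages and red cell precursors were present in all 4. The labels give no sex, so a sex difference and irradiation cannot be told apart in any result below.

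Neutrophil and platelet transcripts and immunoglobulin variable segments fell in the irradiated mutant spleens, while the p53 targets Cdkn1a and Phlda3, the macrophage gene C1qc, the liver genes Alb and Hpx and several small non-coding RNAs rose. Of the autosomal genes, edgeR's quasi-likelihood test called 42 higher (0.251%) and 56 lower (0.335%) at an adjusted p below 0.05. The mutant groups did not overlap in any of these 98 genes. Over all autosomal genes, 26.7% lay higher and 25.9% lower with no overlap, so with 2 libraries a side the absence of overlap alone marks few genes out. The median log2 fold change of all autosomal genes was 0.14, and 56.1% lay above 0. The genes called lower were 34 protein-coding genes, 21 immunoglobulin segments and 1 of another class. Among those called higher, 26 were protein coding and 16 were other RNAs.

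The number of calls rested on the set of libraries and the tool. At an unadjusted p below 0.05, 13.4% of autosomal genes lay higher and 8.83% lower. DESeq2 called 6.25% higher and 5.09% lower, whereas limma-voom with library weights called 0.587% and 0.0898%. Leaving out any 1 of the 4 unirradiated libraries left 0 or 1 gene called higher and 0 to 8 lower. Leaving out irradiated wild-type replicate 1 or 2 left 13 or 12 higher and 37 lower. Without irradiated mutant replicate 1 or 2 the counts were far higher, but that group then held 1 library and added nothing to the estimate of spread. Those fits set 1 library against 2 and are no stronger support. The fit on the 4 mutant libraries alone called 0 genes either way, with 2573 at an unadjusted p below 0.05. All 98 genes kept their sign in each of these fits, which the lack of overlap between their groups made nearly certain. Some uncalled genes, among them Lmna and Mki67, changed sign when 1 irradiated mutant library was left out.

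**Figure D1:**
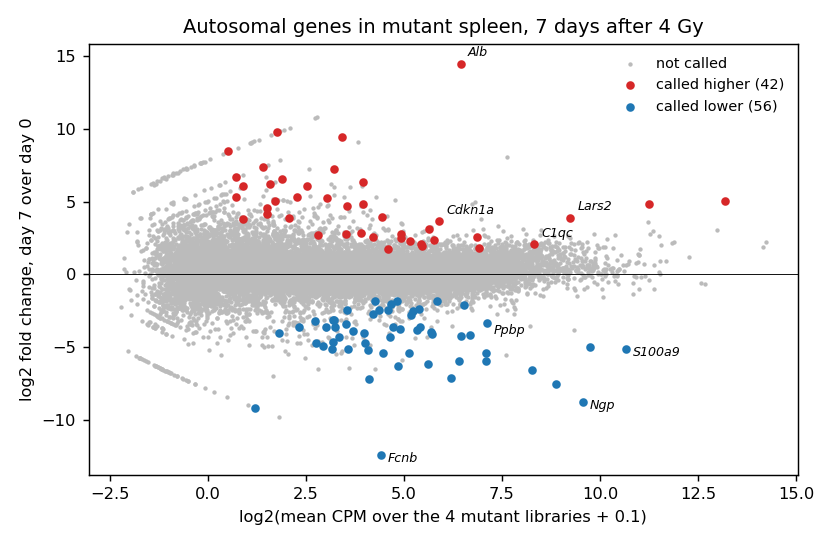
Each point is 1 autosomal gene, with log2 of its mean CPM over the 4 mutant libraries (plus 0.1) on the x axis and the fitted log2 fold change, day 7 over day 0, on the y axis. The 42 genes called higher are red and the 56 called lower blue; Alb and Fcnb lie at the extremes because 1 group was at 0 counts, so their fitted positions are no bounds.

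The deepest falls were in the neutrophil lineage. Of the 24 tested genes of the granulocyte list, 13 fell and 0 rose, and 23 lay lower with no overlap (background 0.335% called and 25.9% without overlap). The exception was Stfa2l1, a stefin named after its values were seen, at 4.23 and 2.51 CPM unirradiated and 5.14 and 4.26 irradiated (adjusted p = 0.70). The median log2 fold change of the list was -5.07. Summed over the list, the unirradiated mutant spleens had 6826 and 13390 CPM and the irradiated ones 292 and 322. In whole tissue, fewer cells of a type and less RNA per cell cannot be told apart, here and for every cell type below. All 13 calls were lost without unirradiated mutant replicate 2 or either unirradiated wild-type library. Fewer were called without unirradiated mutant replicate 1 or irradiated wild-type replicate 1 or 2. DESeq2 called 23 and limma-voom with library weights 7.

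Neutrophils fill their granules in order as they mature: primary granules at the promyelocyte stage, secondary granules at the myelocyte stage. C/EBP epsilon (Cebpe), a transcription factor of the C/EBP family, is required for secondary granules. To show the DNA next to the genes that fell farthest, the windows from 250 bases before to 50 after the start of 3 genes of secondary granules or late precursors and of 1 primary granule gene are printed 5′ to 3′ on the gene's own strand, from RefSeq (GRCm38.p6). Capitals mark matches to the C/EBP-type motif TTNNGNAA on either strand. The windows are Ngp (chr9:110419558-110419857, plus strand), Ltf (chr9:111019042-111019341, plus), Fcnb (chr2:28084829-28085128, minus) and Elane (chr10:79886062-79886361, plus).
Ngp: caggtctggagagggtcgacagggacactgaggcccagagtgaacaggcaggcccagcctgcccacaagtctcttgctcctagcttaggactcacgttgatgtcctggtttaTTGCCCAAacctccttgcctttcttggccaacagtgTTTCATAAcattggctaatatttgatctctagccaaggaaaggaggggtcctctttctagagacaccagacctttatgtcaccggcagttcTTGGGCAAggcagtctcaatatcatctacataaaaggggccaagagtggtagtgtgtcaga
Ltf: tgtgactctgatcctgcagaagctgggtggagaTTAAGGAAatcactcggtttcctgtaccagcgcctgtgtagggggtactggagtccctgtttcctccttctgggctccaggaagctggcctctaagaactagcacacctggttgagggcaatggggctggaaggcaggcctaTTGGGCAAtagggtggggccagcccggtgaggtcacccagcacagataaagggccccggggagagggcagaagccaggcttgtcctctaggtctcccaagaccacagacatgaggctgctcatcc
Fcnb: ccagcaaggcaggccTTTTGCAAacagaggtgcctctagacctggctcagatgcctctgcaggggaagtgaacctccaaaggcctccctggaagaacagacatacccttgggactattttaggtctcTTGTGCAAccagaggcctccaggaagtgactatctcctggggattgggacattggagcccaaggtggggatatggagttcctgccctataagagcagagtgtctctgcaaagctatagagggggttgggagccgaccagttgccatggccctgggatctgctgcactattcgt
Elane: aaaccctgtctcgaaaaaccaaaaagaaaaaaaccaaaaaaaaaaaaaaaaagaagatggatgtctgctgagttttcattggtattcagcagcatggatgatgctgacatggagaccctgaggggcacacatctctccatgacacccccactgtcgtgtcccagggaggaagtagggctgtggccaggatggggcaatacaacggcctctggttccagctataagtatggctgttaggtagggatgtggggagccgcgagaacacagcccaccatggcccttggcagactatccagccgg
The windows of Ngp, Ltf and Fcnb held 3, 2 and 2 matches and that of Elane held 0. Matches did not divide the genes by granule type: the secondary granule gene Camp held 0 and the precursor gene Ms4a3 held 2. Of the 15 neutrophil-lineage genes that fell, counting Cd177 and Ms4a3, 13 had a window in the table, and 8 of these held a match. The motif is common: it lay in the windows of 44.1% of 27025 genes, some of which have several windows, and in 40.7% of single windows. A match is a run of letters, not a measured binding site.

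Genes of the secondary granules and their regulator fell. Ngp (ENSMUSG00000032484.8, GRCm38 chromosome 9, start 110419747, end 110423012), which encodes neutrophilic granule protein, was at 958 and 2067 CPM in the unirradiated mutant spleens and at 4.79 and 2.16 in the irradiated ones. Both irradiated values lay far below both unirradiated ones (log2 fold change -8.79 ± 0.93, SE; adjusted p = 0.018). Ltf, the iron-binding lactoferrin, went from 585 and 1288 to 8.29 and 2.05 CPM (-7.53 ± 1.03, adjusted p = 0.032). Camp, the precursor of the antimicrobial peptide cathelicidin, was at 359 and 859 CPM against 10.5 and 2.27 (-6.60 ± 0.999, adjusted p = 0.039). Unirradiated replicate 2 was the higher of its pair in all of these, and the groups stayed far apart. Cebpe itself was at 19.5 and 49.1 CPM before and at 0.234 and 0.221 after irradiation, which rest on 2 and 4 counts (log2 fold change -7.20 ± 0.68, adjusted p = 0.015). Fcnb, a ficolin made by maturing granulocytes, was at 27.2 and 57.8 CPM and then at 0 counts in both irradiated libraries. Against the floor of 3 counts per library, Fcnb was at least 165-fold below the mean of the unirradiated libraries. Cd177, a surface protein of neutrophils, fell from 86.8 and 208 to 0.934 and 1.11 CPM (-7.14 ± 0.63, adjusted p = 0.010).

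Primary granule genes fell as well. Mpo, the myeloperoxidase, was at 133 and 402 CPM in unirradiated and at 3.85 and 4.76 in irradiated mutant spleens (log2 fold change -5.95 ± 0.74, adjusted p = 0.027). Elane, neutrophil elastase, was at 88.9 and 248 CPM against 2.80 and 2.66 (-5.95 ± 0.91, adjusted p = 0.040). The 2 irradiated libraries were close to each other in both genes. Ctsg, the granule protease cathepsin G, fell from 59.2 and 134 to 1.75 and 1.05 CPM (-6.15 ± 0.78, adjusted p = 0.028). Ms4a3, a membrane protein of granulocyte and monocyte precursors, fell from 34.2 and 79.6 to 0.467 and 0.886 CPM, the latter resting on 4 and 16 counts (-6.30 ± 0.63, adjusted p = 0.016).

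S100a9 and Mmp9, whose transcripts mature neutrophils also carry, fell too, with smaller fitted changes than the genes named above. The genes are grouped for description only, and Cd177, also of neutrophils, had a log2 fold change of -7.14. S100a9 (ENSMUSG00000056071.12, chromosome 3, start 90692632, end 90695721), a calprotectin subunit, was at 2282 and 4031 CPM unirradiated and at 93.4 and 86.8 irradiated (log2 fold change -5.13 ± 0.56, adjusted p = 0.019). The irradiated values were close together and far below both controls. Mmp9, a gelatinase of neutrophil granules, went from 59.8 and 91.2 to 4.44 and 5.87 CPM (-3.86 ± 0.40, adjusted p = 0.016). The granulocyte list's genes that did not pass included Lcn2, an iron-trapping granule protein, and Chil3, a chitinase-like protein. Others were Retnlg, Cxcr2, Csf3r, Ly6g, Padi4, Ceacam1, Ceacam10 and Mmp25, each lower without overlap. Lcn2 was at 356 and 741 CPM against 7.01 and 87.6 (-3.53 ± 1.09, adjusted p = 0.14), with irradiated replicate 2 far above replicate 1 but below both controls. Chil3 was at 293 and 463 CPM against 15.8 and 0.830 (-5.54 ± 1.25, adjusted p = 0.093).

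Platelet transcripts fell next. Of the 20 megakaryocyte and platelet genes tested, 7 fell and 0 rose, and all 20 lay lower with no overlap, with a median log2 fold change of -2.51 (background 0.335% and 25.9%). Megakaryocytes shed platelets that carry their RNA, and GATA factors and NF-E2 control the lineage. Their transcripts summed to 708 and 1130 CPM in unirradiated and to 230 and 196 CPM in irradiated mutant spleens. All 7 calls were lost without any 1 of the 4 unirradiated libraries, and fewer were made without irradiated wild-type replicate 1 or 2. DESeq2 called 15 and limma-voom with library weights 1.

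Gp1ba encodes the platelet receptor for von Willebrand factor. Its window in RefSeq (GRCm38.p6, chr11:70638872-70639171, plus strand) is shown as an example of a platelet gene that fell, with matches to the GATA-type motif GATAA on either strand in capitals.
Gp1ba: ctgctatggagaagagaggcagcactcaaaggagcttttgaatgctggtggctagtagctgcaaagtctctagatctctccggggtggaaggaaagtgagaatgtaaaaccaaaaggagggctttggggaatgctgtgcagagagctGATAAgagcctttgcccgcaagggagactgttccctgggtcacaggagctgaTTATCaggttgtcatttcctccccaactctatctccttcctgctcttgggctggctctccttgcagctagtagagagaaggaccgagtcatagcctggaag
It held 2 matches. Of the 7 platelet genes that fell, 6 had a window and 3 of these held a match, against 28.4% of all genes and 25.4% of single windows.

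Gp1ba was at 10.3 and 15.4 CPM in unirradiated and 0.584 and 0.388 in irradiated mutant spleens (log2 fold change -4.75 ± 0.55, adjusted p = 0.022). Tubb1, the beta tubulin of the platelet's marginal band, fell from 26.3 and 34.8 to 1.87 and 0.609 CPM (-4.71 ± 0.62, adjusted p = 0.030). Treml1, a receptor stored in platelet granules, fell from 12.6 and 25.8 to 1.52 and 0.554 CPM (-4.29 ± 0.60, adjusted p = 0.034). In these 3 genes the groups lay far apart. Ppbp (ENSMUSG00000029372.7, chromosome 5, start 90768518, end 90770063), the precursor of a platelet chemokine, fell from 206 and 299 to 32.2 and 16.8 CPM (-3.37 ± 0.41, adjusted p = 0.027). Rab27b, a GTPase of granule secretion, fell from 18.7 and 22.9 to 1.40 and 2.44 CPM (-3.40 ± 0.41, adjusted p = 0.027). Pf4, platelet factor 4, did not pass, at 69.5 and 121 CPM against 32.5 and 29.2 (-1.63 ± 0.36, adjusted p = 0.090). Nor did Itgb3, the integrin beta 3 chain, at 81.7 and 133 CPM against 16.8 and 34.9 (adjusted p = 0.090).

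**Figure D2:**
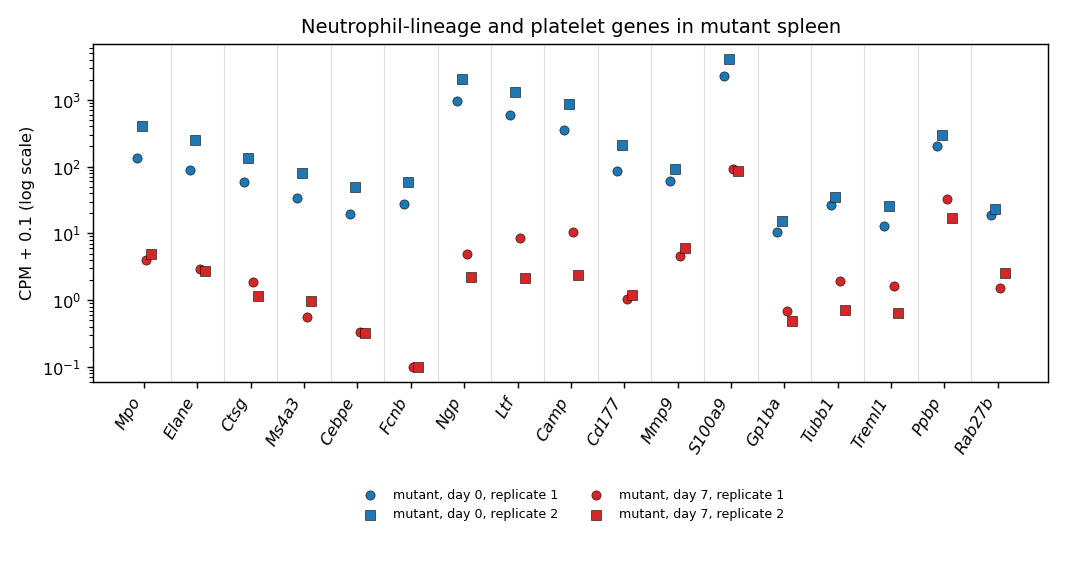
CPM plus 0.1 (log scale) of 17 neutrophil-lineage and platelet genes, 1 point per mutant library (blue, unirradiated; red, 7 days after 4 Gy; circles replicate 1, squares replicate 2). In every gene plotted both red points lie below both blue ones, and Fcnb sits at 0 CPM after irradiation.

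Immunoglobulin variable segments, the parts of antibody genes that B cells join by recombination, made up most of the other falls. Of 88 heavy chain variable segments tested, 13 fell, 86 lay lower with no overlap and 0 had a positive log2 fold change (median -3.42; background 0.335% called lower and 25.9% lower without overlap). Of 92 kappa light chain segments, 7 fell and 76 lay lower with no overlap (median -2.05). Near-identical segments can share reads, so the value of a single segment is uncertain. Constant region genes, which report all antibody RNA together, did not pass in any of 13 cases, and 10 lay lower with no overlap. Ighm, the constant region of IgM, was at 3305 and 3794 CPM against 1961 and 1537 (log2 fold change -1.02 ± 0.55, adjusted p = 0.31). Igkc, the kappa constant region, was at 6745 and 7920 CPM against 2751 and 7026, and irradiated replicate 2 fell between the unirradiated values (adjusted p = 0.63).

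Other lymphocyte genes were lowest in irradiated replicate 1. Of 28 B cell genes, 0 were called, 24 lay lower with no overlap and all had negative log2 fold changes (median -1.86, or -1.18 without irradiated replicate 1 and -4.26 without replicate 2). At an unadjusted p below 0.05 there were 9 lower and 0 higher, DESeq2 called 7 lower, and limma-voom with library weights 0. Of all autosomal genes, 25.9% lay lower with no overlap, and 13.4% lay higher and 8.83% lower at an unadjusted p below 0.05. DESeq2 called 6.25% of them higher and 5.09% lower. The B cell list summed to 10070 and 10900 CPM unirradiated and to 2640 and 6381 irradiated. T cell genes summed to 1775 and 1670 CPM unirradiated but to 454 and 3278 irradiated, so that irradiated replicate 1 lay below and replicate 2 above both controls. Of 32 T cell genes 0 were called (1 at an unadjusted p below 0.05; DESeq2 0), and the median was -0.13, or 0.66 without irradiated replicate 1 and -2.27 without replicate 2. Lck, a kinase of T cell receptor signalling, illustrates this with 137 and 149 CPM against 46.95 and 234 (adjusted p = 0.99). Plasma cell genes (20 tested) had a median of -0.76 (-0.12 without irradiated replicate 1 and -1.59 without replicate 2) with 12 lower without overlap and 0 called (3 at an unadjusted p below 0.05; DESeq2 1). NK and cytotoxic genes (22 tested) had a median of -0.19 (0.25 without irradiated replicate 1 and -1 without replicate 2) and 0 called (1 higher and 1 lower at an unadjusted p below 0.05; DESeq2 0).

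Among the transcripts that rose, 2 were p53 targets. Cdkn1a (ENSMUSG00000023067.13, chromosome 17, start 29090976, end 29100727) encodes p21, an inhibitor of cyclin-dependent kinases. It was at 6.37 and 10.7 CPM in unirradiated and at 158 and 62.5 CPM in irradiated mutant spleens. Both irradiated values exceeded every unirradiated one by more than 5-fold (log2 fold change 3.68 ± 0.50, adjusted p = 0.032). Phlda3 (ENSMUSG00000041801.5, chromosome 1, start 135766119, end 135769136), a repressor of Akt, rose from 5.23 and 5.40 to 28.0 and 34.7 CPM (2.56 ± 0.35, adjusted p = 0.032), with close replicates on each side. The RefSeq window of Cdkn1a (GRCm38.p6, chr17:29090729-29091028, plus strand) is printed because it holds letters of the p53 response element. Capitals mark the 10-base unit of that element, found on either strand.
Cdkn1a: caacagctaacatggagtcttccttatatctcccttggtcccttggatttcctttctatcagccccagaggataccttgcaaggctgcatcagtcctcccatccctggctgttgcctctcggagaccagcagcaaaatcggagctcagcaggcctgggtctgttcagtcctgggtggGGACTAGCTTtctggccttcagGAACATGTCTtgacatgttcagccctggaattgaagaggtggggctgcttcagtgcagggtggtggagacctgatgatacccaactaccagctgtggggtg
It held 2 matches, and the window of Phlda3 held 0. Such a unit lay in the windows of 9.55% of all genes and in 8.36% of single windows. These windows do not reach elements farther upstream or inside a gene.

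The wider p53 target list was less uniform. Of 40 genes tested, 2 rose and 0 fell, against 0.251% of all genes called higher, and 35 lay above 0 on the log2 scale (median 0.84). Both calls were lost without any 1 of the 4 unirradiated libraries, and fewer were made without irradiated wild-type replicate 1 or 2. DESeq2 called 11 members higher and 2 lower. Without overlap, 22 lay higher and 3 lower, against 26.7% and 25.9% of all autosomal genes. DESeq2 called 6.25% of all autosomal genes higher and 5.09% lower. Gdf15, a secreted stress factor, was at 2.14 and 1.30 CPM against 10.9 and 5.20 (2.21 ± 0.53, adjusted p = 0.10). Ccng1, cyclin G1, was at 97.7 and 77.3 CPM against 206 and 184 (1.15 ± 0.29, adjusted p = 0.10). Bbc3, the death-promoting protein PUMA, was at 10.99 and 10.4 CPM against 44.0 and 19.8 (adjusted p = 0.11). In these 3 genes both irradiated values lay above both controls, without passing the test. Gadd45a, a growth arrest gene, was at 56.6 and 50.4 CPM against 848 and 92.95 (3.14 ± 0.87, adjusted p = 0.12), the high value being that of replicate 1. Mdm2, which targets p53 for degradation, was at 75.6 and 75.5 CPM against 129 and 91.7 (adjusted p = 0.30). The DNA damage recognition genes Ddb2 and Xpc lay lower. Ddb2 was at 23.7 and 20.2 CPM against 5.96 and 9.08 (-1.54 ± 0.34, adjusted p = 0.089), and Xpc at 27.5 and 31.7 against 8.53 and 16.5 (-1.23 ± 0.40, adjusted p = 0.14).

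Senescence genes, the subject of the series, had 1 call among 36 tested, Cdkn1a, which both lists share. DESeq2 called 9 higher and 4 lower, against 6.25% and 5.09% of all autosomal genes. At an unadjusted p below 0.05, 15 lay higher and 4 lower, against 13.4% and 8.83% of all autosomal genes. Their median log2 fold change was 1.14, or 0.33 without irradiated replicate 2. Cdkn2a, which encodes the arrest proteins p16 and p19, was at 0.829 and 1.68 CPM unirradiated and at 7.47 and 7.58 CPM irradiated (2.58 ± 0.64, adjusted p = 0.10). The irradiated values nearly coincided and lay above both controls, but the change did not pass. Igfbp5, a secreted binder of insulin-like growth factors, was at 22.4 and 27.7 CPM against 76.97 and 256 (2.73 ± 0.74, adjusted p = 0.11). Timp2, a metalloproteinase inhibitor, was at 82.0 and 65.9 CPM against 160 and 235 (1.42 ± 0.40, adjusted p = 0.12). Other members of the list lay lower. Plaur, the urokinase receptor, was at 36.8 and 53.3 CPM against 8.06 and 18.2 (-1.77 ± 0.43, adjusted p = 0.10), and Tgfb1, a cytokine, at 122 and 153 against 57.6 and 71.4 (-1.09 ± 0.31, adjusted p = 0.12).

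Lmna (ENSMUSG00000028063.15, chromosome 3, start 88480147, end 88509956) was at 86.9 and 86.3 CPM in the unirradiated mutant libraries and at 284 and 57.7 CPM in the irradiated ones. The irradiated values lay on either side of the controls (log2 fold change 0.98 ± 0.67, adjusted p = 0.41; -0.64 without irradiated replicate 1). A substitution need not change the transcript's level, so the label's genotype is left unchecked by it. Of 24 nuclear lamina genes 0 were called by edgeR (1 higher and 2 lower at an unadjusted p below 0.05; DESeq2 called 1 lower, limma-voom with library weights 0). Lmnb1, lamin B1, whose loss is a known mark of senescent cells, was at 163 and 179 CPM against 429 and 149 (adjusted p = 0.41). Lmnb2, lamin B2, was at 23.1 and 32.3 CPM against 6.89 and 12.95 (-1.47 ± 0.38, adjusted p = 0.11), both irradiated values below both controls. Lbr, the lamin B receptor, was at 235 and 194 CPM against 870 and 163 (adjusted p = 0.32). Zmpste24, the protease that matures prelamin A, was at 71.2 and 72.6 CPM against 49.8 and 66.7 (adjusted p = 0.54). Syne1, a nesprin that ties the nucleus to the cytoskeleton, was at 67.1 and 71.8 CPM against 32.2 and 34.7 (-1.05 ± 0.37, adjusted p = 0.16).

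**Figure D3:**
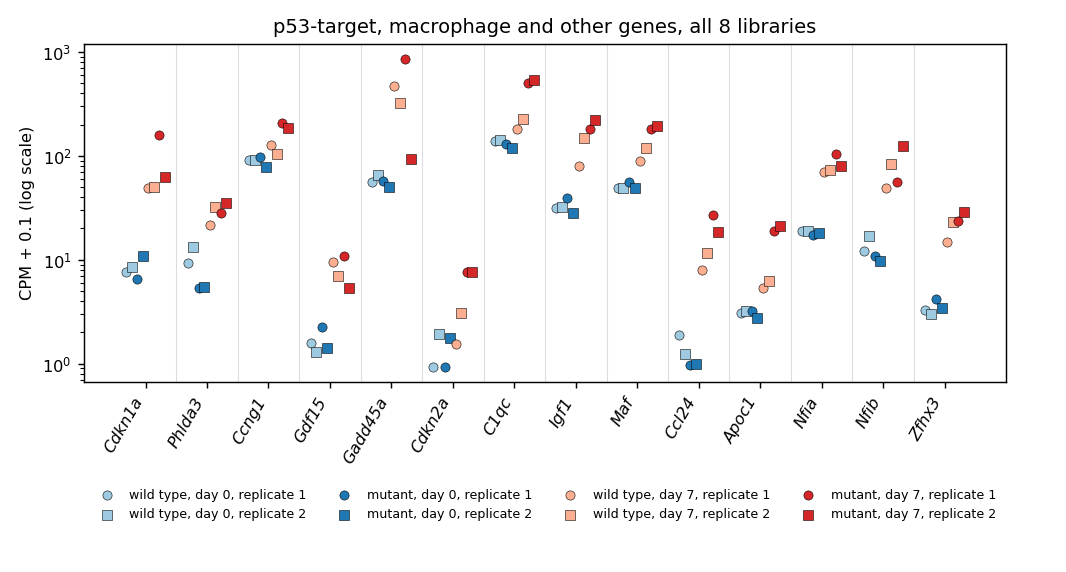
CPM plus 0.1 (log scale) of 14 genes in all 8 libraries (light blue, unirradiated wild type; dark blue, unirradiated mutant; light red, irradiated wild type; dark red, irradiated mutant; circles replicate 1, squares replicate 2). Cdkn1a, Phlda3, C1qc, Igf1, Maf, Ccl24, Apoc1, Nfia, Nfib and Zfhx3 rose in mutants, and the irradiated wild-type points of Cdkn1a, at 49.2 and 49.6 CPM, lie below the mutant ones at 158 and 62.5.

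Resident macrophages of the spleen clear dying cells and worn red cells. Of 23 macrophage genes tested, 1 rose, C1qc, and 14 lay higher without overlap (background 0.251% called and 26.7% without overlap). DESeq2 called 7 of them, and 12 lay higher at an unadjusted p below 0.05. The median log2 fold change was 1.02 (22 of 23 above 0), or 0.66 without irradiated replicate 1. C1qc (ENSMUSG00000036896.5, chromosome 4, start 136889804, end 136893065), a chain of the complement protein C1q that coats dying cells, was at 129 and 119 CPM unirradiated and at 497 and 538 CPM irradiated. The pairs were tight and did not overlap (2.07 ± 0.31, adjusted p = 0.037). Its partner chain C1qa was at 158 and 152 CPM against 380 and 424 (1.37 ± 0.33, adjusted p = 0.10). Csf1r, the receptor for the macrophage growth factor, was at 222 and 193 CPM against 253 and 263 (0.31 ± 0.35, adjusted p = 0.61). Lyz2, lysozyme of myeloid cells, was at 1666 and 1807 CPM against 232 and 1903 (adjusted p = 0.64), low in irradiated replicate 1 only. The list as a whole summed to 5668 and 5275 CPM before and 8729 and 9305 CPM after irradiation.

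Several growth factor, chemokine and transcription factor genes outside the lists also rose. Ccl24, the chemokine eotaxin-2, was at 0.872 and 0.884 CPM and then at 26.7 and 18.4 CPM (4.67 ± 0.47, adjusted p = 0.016). Apoc1, an apolipoprotein gene expressed in macrophages and liver, rose from 3.10 and 2.65 to 18.7 and 20.9 CPM (2.78 ± 0.36, adjusted p = 0.029). Nfib and Zfhx3 encode transcription factors. Nfib rose from 10.7 and 9.59 to 55.8 and 123 CPM (3.14 ± 0.47, adjusted p = 0.038), and Zfhx3 from 4.10 and 3.35 to 23.7 and 29.0 CPM (2.82 ± 0.36, adjusted p = 0.029). In all 4 genes the lowest irradiated value was at least 5-fold above the highest control. The next genes were picked out after their values were seen. Igf1, insulin-like growth factor 1, rose from 39.0 and 27.9 to 182 and 220 CPM (2.59 ± 0.39, adjusted p = 0.037). Maf, a transcription factor of macrophages, rose from 56.3 and 49.4 to 181 and 196 CPM (1.83 ± 0.29, adjusted p = 0.045). Nfia, of the same family as Nfib, rose from 17.3 and 17.96 to 103 and 80.3 CPM (2.38 ± 0.27, adjusted p = 0.020). The cytokine receptor genes Il1r1 and Osmr rose with log2 fold changes of 1.94 ± 0.27 and 2.06 ± 0.29 (adjusted p = 0.032 and 0.035).

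Transcripts of liver and other neighbouring tissues were present in the irradiated libraries. Alb (ENSMUSG00000029368.10, chromosome 5, start 90460897, end 90476602), serum albumin, had 0 counts in both unirradiated mutant libraries and 312 and 38.6 CPM in the irradiated ones. Against a floor of 3 counts per library, the mean of the 2 irradiated libraries was at least 1300-fold higher (adjusted p = 0.044). Replicate 1 made up most of that mean, so the bound does not hold for replicate 2 alone. Of 17 liver genes tested, 2 rose (Alb and Hpx) and 16 lay higher without overlap (background 0.251% called and 26.7% without overlap). At an unadjusted p below 0.05 there were 16, DESeq2 called 16 and limma-voom with library weights 9. The list had a fitted median log2 fold change of 7.26, or 5.13 with the 8 genes that were at 0 in both controls set at their bound. Hpx, the haem carrier hemopexin, rose from 3 and 4 counts to 162 and 65 counts, or 18.9 and 3.60 CPM (6.08 ± 0.94, adjusted p = 0.042). Irradiated replicate 1 had the higher level in both. Fga, a fibrinogen chain gene outside the list, named after its values were seen, also rose. It had 0 counts in both unirradiated mutant libraries and 7.24 and 6.09 CPM in the irradiated ones (adjusted p = 0.030). The liver list summed to 31.4 and 42.5 CPM unirradiated and 587 and 169 irradiated, and its part in the rises of Apoc1 and Igf1, which liver also makes, was not tested.

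Fat and mesothelial genes lay highest in irradiated replicate 2. Fat cell genes summed to 234 and 215 CPM unirradiated and to 572 and 1592 irradiated, and mesothelial genes, from the lining of the abdominal cavity, to 32.1 and 34.9 against 125 and 313. Neither list had a called gene among its 11 and 12 tested (6 and 11 higher at an unadjusted p below 0.05; DESeq2 called 2 and 9). Of all autosomal genes, 13.4% lay higher at an unadjusted p below 0.05, and DESeq2 called 6.25% higher. Lpl, lipoprotein lipase, was at 25.2 and 28.0 CPM against 79.2 and 390 (3.14 ± 0.71, adjusted p = 0.093), and Wt1, a transcription factor of mesothelium, at 7.37 and 6.70 against 30.5 and 35.7 (2.23 ± 0.46, adjusted p = 0.083). Stroma and matrix genes had 0 calls among 37, with 31 higher without overlap (background 26.7%), 33 higher at an unadjusted p below 0.05 and 22 by DESeq2 (limma-voom with library weights 1). Their median log2 fold change was 1.91, or 0.95 without irradiated replicate 2. Cxcl12, a chemokine of stromal cells that holds blood precursors and B cells in their niche, was at 290 and 198 CPM against 579 and 691 (1.38 ± 0.44, adjusted p = 0.14). Endothelial genes (22 tested) had 0 calls, 19 higher without overlap and a median of 0.99 (13 at an unadjusted p below 0.05; DESeq2 4). The vessel marker Pecam1 itself was at 112 and 112 CPM against 96.4 and 151 (adjusted p = 0.84).

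Red cell and proliferation genes lay far apart in the 2 irradiated mutant libraries. All 32 erythroid genes tested lay above 0 on the log2 scale (median 1.83), yet 0 were called by edgeR. At an unadjusted p below 0.05, 11 lay higher (13.4% of all autosomal genes). DESeq2 called 6 (6.25% of all), and 2 lay higher without overlap (26.7% of all). Hba-a1, a globin alpha chain, was at 5959 and 7674 CPM unirradiated and at 57045 and 5689 CPM irradiated (adjusted p = 0.23). Replicate 1 stood far above both controls and replicate 2 below them. Summed, the erythroid list was at 26650 and 25540 CPM against 215100 and 18790, and its median was -0.78 without replicate 1 and 2.56 without replicate 2. Tfrc (ENSMUSG00000022797.15, chromosome 16, start 32608920, end 32632794), the transferrin receptor that brings iron to red cell precursors, was at 627 and 538 CPM against 8500 and 740 (2.99 ± 0.98, adjusted p = 0.15).

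The same 2 libraries split on cell division. Mki67, which encodes the Ki-67 protein of cycling cells, was at 1288 and 946 CPM unirradiated and at 5095 and 703 CPM irradiated (adjusted p = 0.35). Of 44 mitosis genes 0 were called (4 higher at an unadjusted p below 0.05; DESeq2 0), with a median of 0.81 that became -0.92 without replicate 1. Of 44 DNA replication genes 0 were called (0 at an unadjusted p below 0.05; DESeq2 0), with a median of 0.53 and -0.95 without replicate 1. Pcna, the sliding clamp of DNA polymerase, was at 443 and 423 CPM against 1432 and 360 (adjusted p = 0.38). Interferon-stimulated genes summed to 4075 and 4597 CPM unirradiated and 11510 and 5978 irradiated, highest in replicate 1 and without overlap. Of 32 tested 0 were called, and 8 lay higher without overlap (26.7% of all autosomal genes). At an unadjusted p below 0.05, 4 lay higher (13.4% of all), and DESeq2 called 3 higher (6.25% of all). Their median log2 fold change was 0.35, or 0.12 without irradiated replicate 1. Isg15, a ubiquitin-like protein, was at 261 and 303 CPM against 2073 and 354 (2.11 ± 0.74, adjusted p = 0.17). Rsad2, the antiviral protein viperin, was at 395 and 347 CPM against 3573 and 354 (adjusted p = 0.18). Interferon-gamma GTPases (18 tested, 0 called; 6 higher at an unadjusted p below 0.05; DESeq2 5) summed to 1364 and 1401 CPM against 1670 and 2971, highest in replicate 2 and again without overlap, with a median of 0.60 that became -0.34 without replicate 2. Igtp, one of them, was at 125 and 142 CPM against 279 and 302 (1.12 ± 0.30, adjusted p = 0.11), similar in both irradiated libraries.

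The genes with the largest ratios between the irradiated replicates ran in both directions and are given here as a description. Higher in replicate 1 were Car1, a red cell carbonic anhydrase (510 against 12.7 CPM), Slc15a2, a peptide transporter (72.2 against 2.77), Hbb-bt, a globin beta chain (27459 against 1425), Ccdc92b (73.1 against 3.71) and Sec14l2 (63.4 against 3.21). Higher in replicate 2 were Saa3, an acute phase protein (3.85 against 785 CPM), Fcer2a, the IgE receptor CD23 of B cells (0.117 against 19.9), Chil1 (0.818 against 29.7), Ifit1bl1 (3.04 against 72.5) and Cr2, a complement receptor of B cells (5.49 against 124). The unirradiated replicates of these 10 genes lay within 2-fold of each other except Saa3 (0.349 and 2.56 CPM) and Slc15a2 (7.15 and 46.6 CPM).

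**Figure D4:**
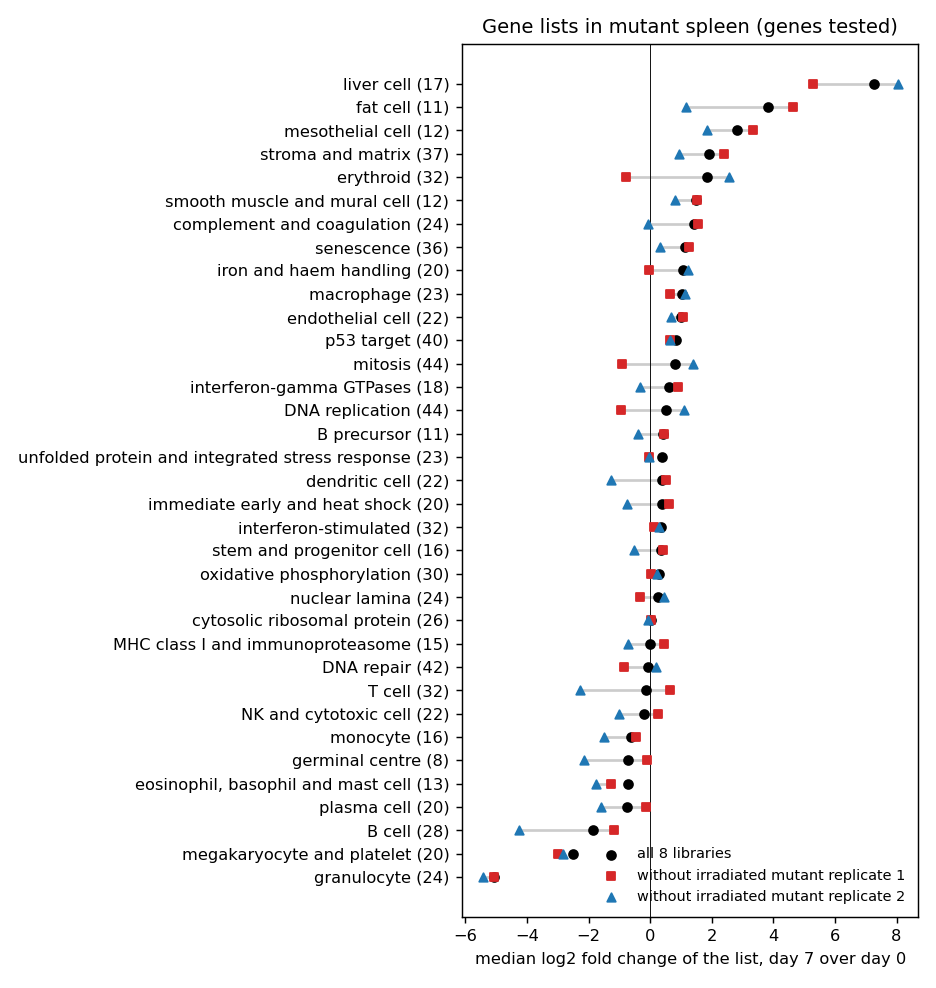
Median log2 fold change (day 7 over day 0 in mutant spleen, x axis) of 35 gene lists with the number of genes tested in brackets: black circles, all 8 libraries; red squares, without irradiated mutant replicate 1; blue triangles, without irradiated mutant replicate 2. The granulocyte list stays at or below -5.06 and the platelet list at or below -2.51 in all 3, whereas the erythroid, mitosis, DNA replication and T cell lists lie on both sides of 0; the liver list's medians are fitted values.

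Some RNAs that lack the poly(A) tail of most messengers were higher in the irradiated libraries. Annotated short non-coding RNA genes held 0.121% and 0.0854% of counts in unirradiated and 2.62% and 0.953% in irradiated mutant libraries, and 7 of the 106 tested rose (median log2 fold change 0.44, 64 above 0; background 0.251% called). Most of that share belonged to 2 loci, named after their values were seen: CT010467.1, annotated as rRNA, and Gm23935, annotated as a miRNA gene, together held 0.101% and 0.0653% unirradiated and 2.59% and 0.928% irradiated. The rest of the class held 0.0192% and 0.0201% against 0.03% and 0.0259%. Rn7sk, the RNA that holds back the elongation factor P-TEFb, rose from 2.44 and 2.79 to 59.7 and 22.1 CPM (3.96 ± 0.54, adjusted p = 0.032). Rpph1, the RNA of ribonuclease P, rose from 0.393 and 0.326 to 49.6 and 11.8 CPM (6.38 ± 0.79, adjusted p = 0.027). All 43 tested genes of the histone clusters, whose messengers end in a stem-loop, had positive log2 fold changes (median 2.77), with 0 called. Of these, 32 lay higher without overlap and 30 at an unadjusted p below 0.05 (background 26.7% and 13.4%). Annotated genes of these clusters held 0.0152% and 0.0155% of counts unirradiated and 0.0664% and 0.0191% irradiated, the high share being that of replicate 1. Lars2 (ENSMUSG00000035202.8, chromosome 9, start 123366927, end 123462666), a mitochondrial leucyl-tRNA synthetase, rose from 81.3 and 71.1 to 1708 and 573 CPM (3.90 ± 0.56, adjusted p = 0.035). Replicate 1 was the higher of the irradiated pair in all 3 named genes. The 10 most abundant genes took 16.2% of its counts, against 6.38% to 11.8% in the other 7 libraries. The part of RNA composition in the results above was not tested.

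The changes in mutants mostly ran the same way in wild-type spleens. Of the genes called higher all 42, and of those called lower 55 of 56, had the same sign in wild type, against 82.2% of all autosomal genes. In wild type edgeR called 5 genes (0.0299%), of which 1 was among the 42 and 4 among the 56 mutant calls. At an unadjusted p below 0.05 there were 17.3% of genes in wild type, DESeq2 called 6.55% and limma-voom with library weights 3.42%. The wild-type count of 5 was 0 when any 1 wild-type library or unirradiated mutant replicate 1 was dropped, and 2 when unirradiated mutant replicate 2 was. Dropping irradiated mutant replicate 1 or 2, which took that pair's spread out of the estimate, raised the wild-type count far above 5. The test of the difference between the irradiation effects called 0 genes (0%), with 268 at an unadjusted p below 0.05 and a smallest adjusted p of 1. DESeq2 called 4, and edgeR without a low-count filter 50. Across genes, which are not independent replicates, the 2 sets of fold changes had a Pearson correlation of 0.759 and a Spearman correlation of 0.781.

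For the granulocyte list the groups began at different levels and ended close together. Its sum was 2079 and 1743 CPM in unirradiated wild type, against 6826 and 13390 in mutants, and 247 and 117 CPM in irradiated wild type, against 292 and 322 in mutants. Ngp had a log2 fold change of -5.10 in wild type and -8.79 in mutants, a difference of -3.69 ± 0.98 (unadjusted p = 0.0058, adjusted p = 1). For Cdkn1a the values were 2.64 and 3.68, a difference of 1.04 ± 0.64 (adjusted p = 1). C1qc rose in mutants by 2.07 and was at 138 and 143 against 180 and 226 CPM in wild type (log2 fold change 0.53, difference 1.53 ± 0.42, unadjusted p = 0.0067, adjusted p = 1). Platelet genes had medians of -2.48 in wild type and -2.51 in mutants, and liver genes fitted medians of 6.90 and 7.26. The macrophage list had medians of 0.07 and 1.02, and the fat list of 0.00 and 3.82, the last being 1.17 without irradiated mutant replicate 2. None of these differences passed the test gene by gene.

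**Figure D5:**
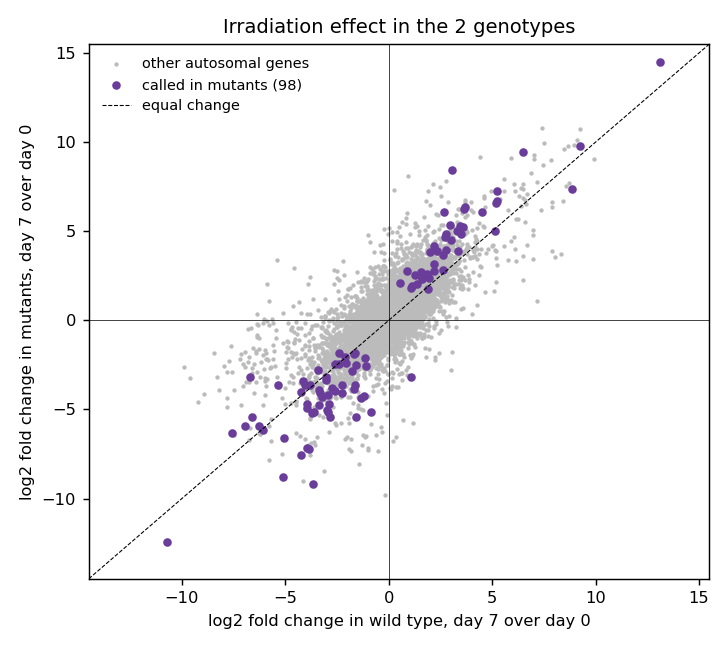
Fitted log2 fold change, day 7 over day 0, of each autosomal gene in wild type (x axis) and in mutants (y axis), with the 98 genes called in mutants in purple and a dashed line of equal change. Purple points lie in the quadrants of equal sign except for 1.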

How the data were processed

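Spleen RNA was sequenced from 8 samples, 2 in each of 4 groups named in the sample titles; the labels give no sex, litter or batch, and their growth protocol describes cultured human cells and was not used. Spleens were flash frozen and RNA was extracted with Trizol, per the labels' protocols. The deposited table holds raw counts per gene, made by the authors with Trim Galore, Subread and featureCounts, per the submitters' processing notes, which name hg38 and mm10. The annotation release, the strand setting and how multiply mapped reads were treated are not stated there, so genes that overlap or have near-identical copies are uncertain. Of 52636 identifiers, 52489 matched GENCODE M21 (GRCm38) by their unversioned part. 0 lines named no gene.

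Genes were kept by filterByExpr (minimum count 10, minimum total 15), scaled by TMM and tested with edgeR 4.0.16 (R 4.3.3) in a quasi-likelihood fit of all 8 libraries, with a term per group and Benjamini-Hochberg adjustment over all 17327 genes (threshold 0.05; common dispersion 0.152; 4 residual degrees of freedom). SEs were taken as the size of the log2 fold change over the root of F. DESeq2 1.42.0 and limma 3.58.1 were alternatives. The procedure was also run on simulated counts with the same spread in every group. The irradiated mutant pair lay much farther apart than the other pairs, so that run does not vouch for the calls. No label says that replicates are separate mice, so the p-values cover the spread between these libraries alone, and part of it may be technical. Replicate counts differed beyond sampling noise (chi-square over degrees of freedom 19.1 to 331). Floors cover counting error only. The comparison, the 36 gene lists (35 with at least 5 genes tested) and the named genes were chosen with earlier results of these data known. Named were the 10 highest and 10 lowest called genes with a mean of at least 5 CPM, called and abundant members of each list, the p53, senescence and lamina lists, Lmna, and the 5 genes each way with the largest ratio between the irradiated mutant libraries. Predicted genes and antigen receptor segments were left out. Of 21 promoter windows scanned, 18 had their first transcribed bases found in GENCODE transcripts.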

Additional observations from a re-analysis of the deposited data

How the results depend on the processing

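The number of calls did not hold. The 98 called genes kept their sign in every alternative that tested them, which says little, since their mutant groups did not overlap. Against 42 genes higher and 56 lower, no low-count filter gave 1176 and 903, DESeq2 1045 and 850, limma-voom with library weights 98 and 15, the 4 mutant libraries alone 0 and 0, and a fit of protein-coding genes alone, chosen after seeing the data, 13 and 24. Without globin and antigen receptor genes 29 were lower. Leaving out 1 library gave 0 to 1917 higher and 0 to 2370 lower. The genotype difference in the irradiation effect had 0 calls, except 4 by DESeq2 and 50 with no low-count filter. RLE scaling and a fit of autosomal genes alone changed the counts by less than 1.5 times. The cause of these differences was not tested, apart from the fewer samples or genes that some fits hold by construction.

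With the replicate number as a block (replicate block), 131 genes were higher and 111 lower. Deviations of same-numbered samples had correlations of 0.0321 to 0.432 over the 6 pairs of groups, with 0.0782 for the mutant groups and 0.432 for the irradiated ones. They were not above 0.1 in every pair and no label ties the numbers, so these were not taken to pair the samples.

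With 1 library left out, log2 fold changes that turned sign ran from -1.75 to 0.66 for Lck, -0.31 to 2.92 for Hba-a1, -3.05 to 0.0795 for Lyz2, -0.72 to 2.04 for Mki67, -0.32 to 1.58 for Pcna, -0.64 to 1.57 for Lmna, -0.25 to 1.18 for Lmnb1, -0.45 to 1.87 for Lbr, -0.12 to 3.12 for Rsad2, -0.37 to 0.38 for Pecam1 and -0.15 to 2.57 for C3. None of these had passed the test. With 2 libraries a side, changes of low genes were not detectable at this depth where both groups lay near the floor of 3 counts.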

Other observations

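Other gene groups had at most 1 edgeR call each. Iron and haem handling genes (20 tested) had 1 call, Hpx (7 higher at an unadjusted p below 0.05; DESeq2 5), and a median log2 fold change of 1.07, which was -0.03 without irradiated mutant replicate 1. Fth1, the heavy chain of the iron store ferritin, was at 1144 and 1210 CPM in unirradiated and at 3654 and 2176 CPM in irradiated mutant spleens (1.31 ± 0.42, adjusted p = 0.15). Both irradiated values lay above both controls. Complement and coagulation genes (24 tested) had 1 call, C1qc (13 higher at an unadjusted p below 0.05; DESeq2 8, against 6.25% of all genes), and a median of 1.43, or -0.08 without irradiated replicate 2. C3, the central complement component, was at 417 and 558 CPM against 486 and 3013 (1.84 ± 0.82, adjusted p = 0.24), high in irradiated replicate 2 alone. Ctsb, the lysosomal protease cathepsin B, was at 873 and 811 CPM against 2618 and 1672 (1.35 ± 0.37, adjusted p = 0.12).

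The lists of DNA repair (42 tested, median -0.08, 14 lower and 2 higher without overlap), cytosolic ribosomal proteins (26, 0.04), oxidative phosphorylation (30, 0.29), unfolded protein and integrated stress response (23, 0.40), dendritic cells (22, 0.38), monocytes (16, -0.61), stem and progenitor cells (16, 0.34), B precursors (11, 0.42), germinal centre (8, -0.70), smooth muscle and mural cells (12, 1.49), and eosinophils, basophils and mast cells (13, -0.72) had 0 edgeR calls each. Without irradiated mutant replicate 2 the medians were -1.26 for dendritic cells, -1.50 for monocytes, -0.52 for stem and progenitor cells, -0.39 for B precursors, -2.14 for germinal centre, 0.80 for smooth muscle and mural cells and -1.75 for eosinophils, basophils and mast cells. The DNA repair and oxidative phosphorylation medians were -0.85 and 0.01 without replicate 1, and that of the stress response list -0.04 and -0.05 without replicate 1 and 2. Of the smooth muscle and mural genes 7 lay higher at an unadjusted p below 0.05, and DESeq2 called 3. At an unadjusted p below 0.05, 7 repair genes lay lower and 2 higher, and DESeq2 called 4 repair genes lower. Of all autosomal genes, 25.9% lay lower and 26.7% higher without overlap, and 8.83% lay lower and 13.4% higher at an unadjusted p below 0.05. DESeq2 called 5.09% of them lower and 6.25% higher. Over the MHC class I list (15 tested, 0 called; 2 higher at an unadjusted p below 0.05; DESeq2 1) the median was 0.00, while its light chain gene B2m was at 2324 and 2155 CPM against 4244 and 4352 (0.94 ± 0.36, adjusted p = 0.19). Immediate early and heat shock genes, which respond to tissue handling, had a median of 0.37 (-0.74 without irradiated replicate 2) over 20 tested and 0 called (5 higher at an unadjusted p below 0.05; DESeq2 3). Jund, an AP-1 subunit, was at 81.6 and 94.6 CPM against 284 and 225 (1.53 ± 0.36, adjusted p = 0.098).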
